A study of Mus musculus with 10 samples.

Results

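A group of 2716 OTX2 peaks of mouse definitive endoderm (DE) is described here: peaks that had no counterpart in epiblast stem cells (EpiSCs), lay away from the ends of protein-coding genes and stood close to other endoderm peaks. They were 2716 of the 42711 DE peaks (6.36%). A peak was taken when it was on chromosomes 1 to 19 or X, did not overlap any of the 6319 EpiSC peaks, had its centre more than 1 kb and at most 100 kb from the closest end of a protein-coding gene, and had at least 3 other DE peak centres within 10 kb. These positions and counts chose the peaks, so clustering, absence from the EpiSC list and distance from gene ends are descriptions and not findings. The first 3 conditions alone left 25311 new distal peaks, of which 10.7% were clustered in this way.

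The peaks came from CUT&RUN, in which an antibody directs a nuclease to its target in permeabilised cells and the released DNA is sequenced. The target was OTX2 with an HA tag in the line 7H OTX2-dTAG-EGFP, of a BL6/129 hybrid strain, with 500000 cells a sample. The 2 HA samples of tagged DE gave 1 pooled DE list and the 2 HA samples of tagged EpiSCs gave 1 pooled EpiSC list. Background lists came from 3 IgG samples of tagged EpiSCs and, for DE, from HA CUT&RUN of 1 sample of line 5.8, the parent without the tag. The IgG samples of tagged DE and of parental DE, 1 each, were not analysed here. EpiSCs are a culture model of the epiblast, and their medium held Activin A at 20 ng/ml, FGF2 at 12.5 ng/ml and the compound labelled NVP at 175 nM. For DE, cells first received Activin A at 40 ng/ml together with CHIR at 3 µM over 16 h. Activin A at 100 ng/ml together with LDN at 100 nM followed over 24 h, and live cells were then sorted by DAPI. Every tagged sample was of 1 line. Peak lists hold no expression values, so the labelled cell types could not be checked against markers. With 1 pooled list per state there was no replicate spread and read depth is unknown. All values below describe these lists, and no difference between groups of peaks was tested.

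OTX2 is a homeodomain transcription factor of the epiblast, the anterior endoderm and the forebrain, and its loss disrupts formation of the head. Homeodomains of its bicoid class recognise the core TAATCC, which reads GGATTA on the other strand. Many regulatory elements of developmental genes lie outside promoters, in introns or between genes, and several of them often occur together around 1 gene. Endoderm also depends on forkhead, GATA, SOX and T-box factors, each with a short recognition core of its own.

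Sequence was read where a clustered peak reached into a RefSeq promoter window, 250 bases before to 50 after a transcript start on GRCm38.p6. Such windows also exist at starts inside long genes and at non-coding genes, and 67 clustered peaks touched one, 28 of them wholly inside. The peaks below were chosen because they show the OTX2-class core, in capitals, or because they belong to genes with many clustered peaks and lack it. Only the bases upstream of the start are printed, along the strand of the gene. With the core are Apoe, a lipoprotein gene (chr7:19699216-19699278, minus strand), the phospholipase gene Pla2g5 (chr4:138819292-138819465, minus strand), the adducin gene Add3 (chr19:53143893-53143996, plus strand), the organic anion transporter gene Slco4a1 (chr2:180460862-180460977, plus strand), the nuclear envelope gene Syne3 (chr12:104998678-104998927, minus strand) and Gm51915, a gene inside Ypel2 (chr11:86991905-86991968, plus strand). Without it are Asb4 (chr6:5390202-5390263, plus strand) and Rbpj, the transcriptional effector of Notch signalling (chr5:53590260-53590485, plus strand).
Apoe: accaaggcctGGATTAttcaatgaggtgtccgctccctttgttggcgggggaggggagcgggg
Pla2g5: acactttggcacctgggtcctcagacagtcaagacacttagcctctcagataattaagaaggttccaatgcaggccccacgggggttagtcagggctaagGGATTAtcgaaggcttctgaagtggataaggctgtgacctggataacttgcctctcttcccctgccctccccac
Add3: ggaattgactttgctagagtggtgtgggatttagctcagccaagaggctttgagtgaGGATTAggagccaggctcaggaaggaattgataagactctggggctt
Slco4a1: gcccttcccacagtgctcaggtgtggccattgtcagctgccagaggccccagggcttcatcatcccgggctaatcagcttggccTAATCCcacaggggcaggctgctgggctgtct
Syne3: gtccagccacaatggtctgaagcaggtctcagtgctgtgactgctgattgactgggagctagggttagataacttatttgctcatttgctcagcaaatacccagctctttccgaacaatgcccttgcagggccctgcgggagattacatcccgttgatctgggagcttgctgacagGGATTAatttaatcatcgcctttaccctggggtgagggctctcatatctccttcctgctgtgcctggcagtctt
Gm51915: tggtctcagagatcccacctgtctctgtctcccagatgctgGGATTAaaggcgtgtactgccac
Asb4: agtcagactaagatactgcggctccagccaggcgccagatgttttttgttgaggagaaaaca
Rbpj: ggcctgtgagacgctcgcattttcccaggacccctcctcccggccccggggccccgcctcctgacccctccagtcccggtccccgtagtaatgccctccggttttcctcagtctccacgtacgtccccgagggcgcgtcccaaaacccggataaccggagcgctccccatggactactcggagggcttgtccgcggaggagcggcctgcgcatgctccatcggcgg

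The printed Apoe, Pla2g5 and Asb4 stretches are whole peaks, while the others are the part of a peak that lies upstream of the start and inside the window; the Syne3 peak runs on beyond the window's upstream edge. Of the clustered peaks with at least 60 bases in a window, 10 of 56 held TAATCC on either strand (17.9%, 95% Wilson interval 10 to 29.8%). The share was 8.67% of 496 new distal peaks with fewer neighbours (6.50 to 11.5%), 9.91% of 222 distal peaks kept from EpiSCs (6.64 to 14.5%) and 3.91% of 2556 new peaks at gene ends (3.23 to 4.74%). Median lengths read were 120, 121.5, 178 and 127 bases, and GC contents were 59.1%, 60%, 59.0% and 63.6%. Per kb read, TAATCC occurred 1.32 times in the clustered peaks and 0.660 times in those with fewer neighbours. The same 6 letters in another order, TACATC, were in 1 of the 56 clustered peaks (1.79%) and in 1.41% of those with fewer neighbours. Among all 32619 promoter windows of 300 bases, 7.04% held TAATCC and 7.45% held TACATC, or 0.248 and 0.264 times per kb, against 1.32 and 0.132 in the clustered peaks. The interval of the clustered peaks overlaps those of the other distal peaks, so with 56 peaks a difference between them cannot be read.

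In the Gm51915 stretch the core lies within 11 letters that are also found in B1 repeats, short interspersed elements of the mouse genome. Those letters were in 1 of the 56 clustered peaks and in 66 of the 32619 windows, and without it 9 of the 56 still held TAATCC. The GATA core AGATAA was in 7 of the 56 clustered peaks (12.5%, 6.19 to 23.6%), against 6.05% of those with fewer neighbours (4.27 to 8.50%) and 11.2% of all windows. The SOX core ACAATG was in 4 of the 56 (7.14%), the forkhead core TGTTTAC in 2 (3.57%) and the T-box core GGTGTGA in 1 (1.79%). In all windows, which are 300 bases long against a median of 120 bases read, these 3 stood at 12.2%, 3.67% and 3.98%. Per kb, which allows for length, they occurred 0.792, 0.264 and 0.132 times in the clustered peaks and 0.449, 0.126 and 0.136 times in all windows. The order of the shares thus turns per kb for the SOX and forkhead cores. AGATAA occurred 1.06 times per kb in the clustered peaks and 0.415 times in all windows. TAATTA, a core of many other homeodomains that shares its first 4 letters with TAATCC, was in 1 of the 56, against 5.25% of all windows (0.132 and 0.192 times per kb). The SMAD core CAGAC was in 16 of the 56 (28.6%), and in 49.5% of all windows, or 2.90 and 2.36 times per kb, an order that also turns. Promoter windows of the genes with a clustered peak held TAATCC in 54 of 792 cases (6.82%, 5.26 to 8.79%), about the share of all windows.

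New distal peaks became rarer with each further neighbour. No neighbour within 10 kb was found for 11627 of them, 1 for 7550, 2 for 3418, 3 for 1668, 4 for 651, and 5 or more for 397. The highest number was 9, reached by 9 peaks. Just inside the limit, peaks with 3 neighbours had a median width of 137.5 bp, and just outside it, peaks with 2 had 135 bp. At the limits on distance, 27 clustered peaks lay within 100 bp beyond the 1 kb limit and 21 otherwise equal peaks within 100 bp before it, and 52 lay 90 to 100 kb from a gene end against 46 at 100 to 110 kb.

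**Figure D1:**
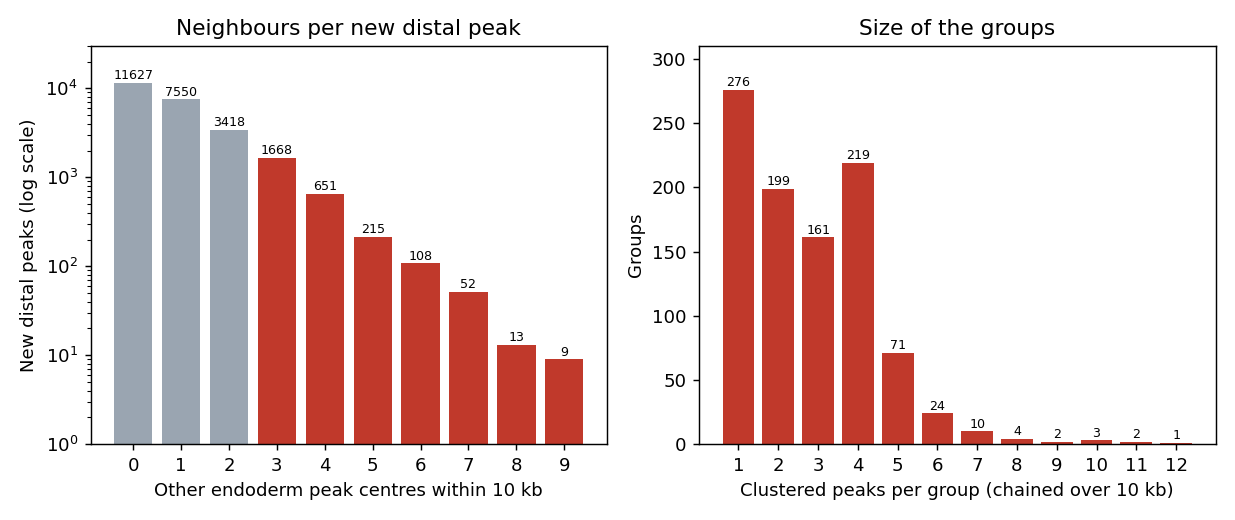
Left, number of new distal DE peaks (log axis) by the number of other DE peak centres within 10 kb, with the 2716 clustered peaks in red. Right, number of groups by how many clustered peaks they hold, when consecutive peaks up to 10 kb apart are chained; 276 groups hold 1 and a single group holds 12.

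Clustered peaks were chained into groups when consecutive centres were at most 10 kb apart. This gave 972 groups with a median of 3 clustered peaks. A single clustered peak, whose neighbours were other kinds of DE peak, made up 276 groups, and 696 groups held at least 2. The 117 groups of at least 5 held 683 peaks. Groups of at least 2 spanned a median of 6454 bp (interquartile range 3429 to 9223 bp) and at most 32641 bp. Consecutive centres were a median of 1848 bp apart, and 328 of 1744 gaps (18.8%) were under 500 bp. When DE peaks up to 500 bp apart were joined, the 2716 peaks fell on 2244 sites, and when such sites were also used to count neighbours, 1504 peaks met the rule.

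The neighbours included both new and kept peaks. Of the 1879 other DE peaks within 10 kb of a clustered one, 615 were kept from EpiSCs (32.7%), against 11.7% of all DE peaks, a share that the rule shapes because clustered peaks are new and are left out of the 1879. With neighbours counted among new DE peaks only, 2151 of the 2716 (79.2%) kept at least 3. A DE peak kept from EpiSCs lay within 10 kb of 887 clustered peaks (32.7%). No EpiSC peak lay in the span of 572 of the 696 groups with at least 2 clustered peaks (82.2%), nor in that of 97 of the 117 groups of at least 5. Groups of 1 are left out of this count because the rule bars their only peak from overlapping an EpiSC peak. The rule shapes the larger groups too, as only the stretches between their clustered peaks could hold an EpiSC peak. An IgG or parental HA peak overlapped 21 of the 42694 DE peaks on these chromosomes (0.0492%) and none of the 2716 clustered ones, where 3 counts would be 0.110%, so the clustered peaks cannot be told apart from the rest in this.

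The 10 largest groups held 98 clustered peaks, and 81 of these lay inside a protein-coding gene. The last places are a tie, broken by chromosome and start: 4 groups held 8 peaks, and the 12 groups of at least 8 held 114 peaks, also with 81 inside a gene. The 2 groups left out by the tie, named for Gm10655 and for 1700016G22Rik and Gm26043, lay outside protein-coding genes. An EpiSC peak lay in the span of 1 of the 10, the group in Gse1. The largest held 12 peaks on chromosome 11 from 11812043 to 11844683, 10 of them named for Ddc, the decarboxylase that makes dopamine and serotonin, and 2 for Fignl1, an ATPase of DNA repair. The 10 named for Ddc were 70 to 411 bp wide and lay within the gene, from 11820386 to 11844683, with 3 to 7 neighbours each. The third group held 11 peaks on chromosome 15 from 102005438 to 102034948 around Krt8 and Krt18, which encode the keratin pair of simple epithelia. None of these 11 lay inside either gene. The 5 peaks named for Krt8 were 438, 212, 161, 69 and 336 bp wide, and the 6 named for Krt18 were 267, 297, 219, 192, 138 and 165 bp wide, in genome order. The first of the row had its centre 1314 bp from the end of Krt8, and the last lay beyond Krt18, 2840 bp from its end.

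Within Gse1, which encodes a coiled-coil protein, 11 clustered peaks ran from 120486602 to 120514443 on chromosome 8, with 1 kept peak among them. Aff1, whose product is a scaffold of the super elongation complex, held 2 of the 10 largest groups, with 10 peaks on chromosome 5 from 103711608 to 103742624 and 8 from 103754131 to 103760819. The first of them fell on 5 sites and the second also on 5, as several peaks were close together. Asb4, an imprinted gene of the ankyrin repeat and SOCS box family, had 10 clustered peaks on chromosome 6 from 5381004 to 5395252. Of these, 9 lay inside the gene, 6 of the 10 had 9 neighbours, and the widest were 454, 441 and 331 bp.

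Another group held 10 peaks from 75445967 to 75467850 on chromosome 1, named for Asic4, of the acid-sensing channel family, for Gmppa, of mannose metabolism, and for Gm37264. On chromosome 11, 9 peaks named for Nat9 and Gm25837 lay within Tmem104 (115215222 to 115234156). On chromosome 12, 9 peaks named for the long non-coding RNA gene 3300002A11Rik lay within Foxn3, a forkhead repressor gene (99326074 to 99342585). Pax7, a paired-box gene of neural crest and muscle, had 8 peaks within it on chromosome 4 (139809428 to 139825077), with widths of 74 to 249 bp. Otx2 itself named none of the clustered peaks. On its chromosome, 14, a group of 7 named for Gm25380 lay from 48700872 to 48709966, which is 33228 to 42322 bp beyond the gene. Its peaks were 417, 316, 247, 384, 259, 289 and 74 bp wide on 3 sites, a median of 289 bp.

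**Figure D2:**
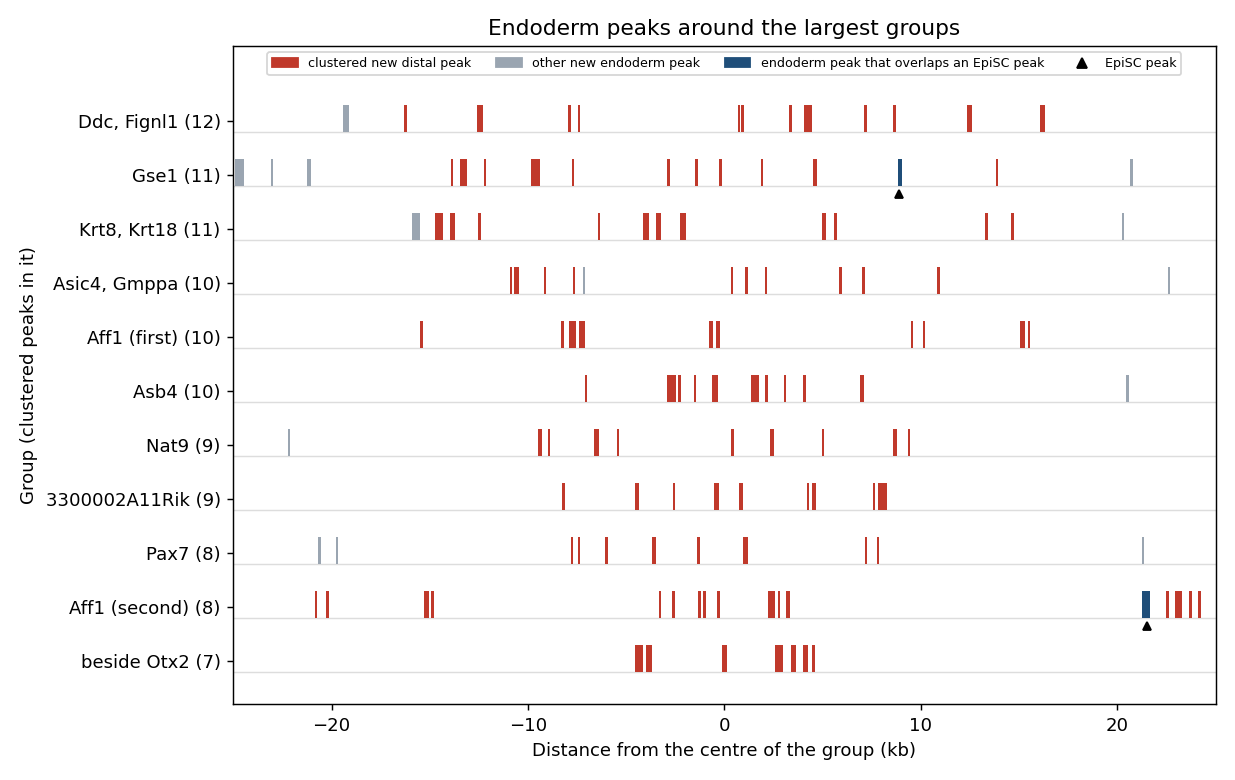
DE peaks around the 10 largest groups and the group beside Otx2, drawn to scale by distance from the centre of the group in kb (very narrow peaks are widened to stay visible); the number of clustered peaks is given beside each name. An EpiSC peak lies within the span of the group in Gse1, and the groups of Ddc, Asb4, Pax7 and that beside Otx2 have none.

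The widest clustered peak measured 976 bp and lay on chromosome 8 from 34804317 to 34805292, 2806 bp from the end of Dusp4, a phosphatase gene of ERK feedback. The next were 801 bp within Sema6a, a semaphorin gene (chromosome 18, 47326632 to 47327432), and 780 bp within Lrrc1 (chromosome 9, 77534934 to 77535713). A peak of 695 bp lay within Aff1 (103790947 to 103791641) and one of 693 bp within Prdm1, which encodes the repressor BLIMP1 (chromosome 10, 44464176 to 44464868). Each of these 5 had 3 neighbours, the fewest the rule allows.

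Across all clustered peaks the median width was 141 bp (interquartile range 93 to 215 bp). It was 127 bp (88 to 189 bp) in new distal peaks with fewer neighbours, 225 bp (150.5 to 328.5 bp) in kept distal peaks with at least 3 neighbours and 212 bp in kept distal peaks with fewer. Kept peaks were thus the wider ones at either number of neighbours. In new distal peaks the median was 123 bp at no neighbour, 138 bp at 4 and 159 bp at 5 or more. The lists have no score, so width is the only value of a peak.

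Inside a protein-coding gene lay 53.0% of clustered peaks (51.1 to 54.9%), against 52.2% of new distal peaks with fewer neighbours (51.6 to 52.9%), and these intervals overlap. The median distance to the closest protein-coding gene end was 14749 bp in clustered peaks and 18502 bp in those with fewer neighbours. Where the strand of that closest gene was known and the peak lay outside genes, the closest end was the 5′ end for 582 of 965 clustered peaks (60.3%, 57.2 to 63.4%) and for 54.8% of 8347 with fewer neighbours (53.7 to 55.8%). For peaks inside genes the shares were 64.6% of 1054 (61.7 to 67.4%) and 55.0% of 9204 (53.9 to 56.0%). Kept distal peaks with at least 3 neighbours had 67.1% and 75%. Kept distal peaks with fewer neighbours had 58.5% outside (55.0 to 61.8%) and 61.2% inside (57.8 to 64.5%), intervals that overlap those of the clustered new peaks. Over all DE peaks, those at gene ends included, the shares were 62.3% and 60%. New distal peaks with fewer neighbours thus had the lowest shares of these groups, and a high share was not limited to clustered peaks. Neighbouring peaks share their gene, so these intervals are too narrow.

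An EpiSC peak that DE had lost, one that overlapped no DE peak and so could not add to the neighbour count, lay within 10 kb of 114 clustered peaks (4.20%, 3.51 to 5.02%) and of 1.77% of those with fewer neighbours (1.61 to 1.96%). For kept distal peaks with at least 3 neighbours the share was 10.3% (7.71 to 13.5%). Any EpiSC peak lay within 10 kb of 34.0% of clustered peaks and 7.82% of those with fewer neighbours, a comparison that the rule shapes because kept peaks count as neighbours.

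In the authors' deposited table the clustered peaks were named for 1047 genes, 676 of them protein-coding, with a median of 2 each. Among protein-coding genes 3.13% had at least 1 clustered peak. In this table Aff1 led with 24 clustered peaks, of 28 DE peaks and 1 EpiSC peak. Gse1 followed with 15, of 29 DE and 6 EpiSC peaks. Both are long genes, of 162961 and 352883 bp. Pax7 had 12 clustered peaks of 17 in DE and none in EpiSC, and Gm10655 had 12 of 24 and 3 in EpiSC, per the authors' deposited table. Counts of 10 in that table belonged to Asb4 (of 15 DE peaks), Ddc (of 11), Lhx1os (of 13), Lrig1 (of 16) and Slit1 (of 16). Lhx1os is a long non-coding RNA gene beside Lhx1, a LIM homeodomain gene needed for the head, Lrig1 encodes a membrane inhibitor of EGF receptor signalling, and Slit1 encodes a ligand of ROBO receptors. The EpiSC counts of these 5 in the authors' deposited table were 1, 0, 1, 2 and 3. 3300002A11Rik had 9 clustered peaks and no other peak in either state. It shares the tenth place with 5 other genes of 9 clustered peaks in the authors' deposited table, Auts2, Dact2, Gm25258, Rbm20 and Ypel2, and was taken as the first in alphabetical order.

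**Figure D3:**
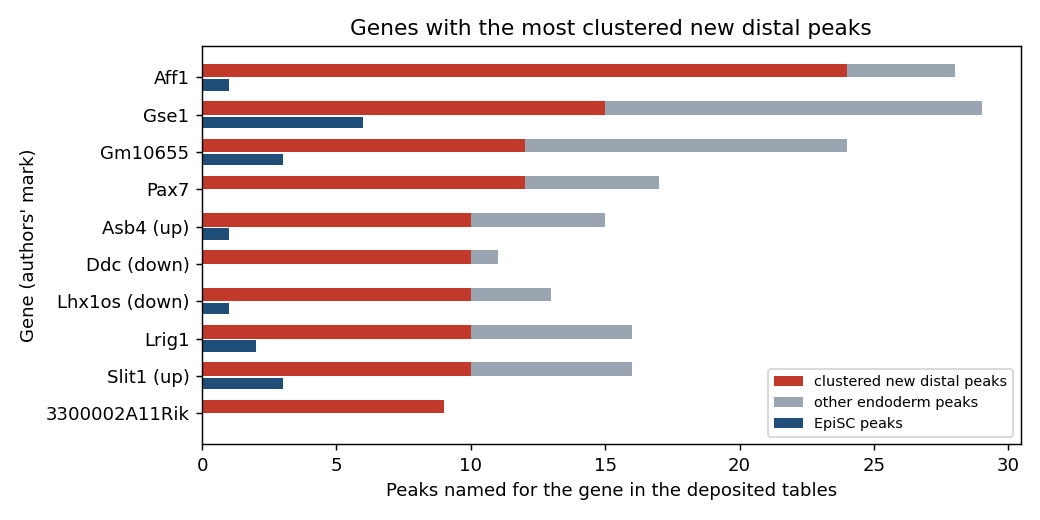
Peaks named for the 10 genes with the most clustered new distal peaks, from the deposited tables: clustered peaks (red), other DE peaks (grey) and EpiSC peaks (blue), with the authors' mark in brackets; the last is the first in the alphabet of 6 genes with 9. Aff1 has 24 clustered peaks and 1 EpiSC peak, and Pax7, Ddc and 3300002A11Rik have no EpiSC peak.

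The authors' deposited table marks some genes in columns headed DEGdown (rank10) and DEGup (rank10). The contrast behind these marks is not given in the sources used here, so they are called down and up only as headed. Of all 19553 genes named for DE peaks on these chromosomes, 335 were marked down (1.71%) and 362 up (1.85%). Among the 1047 genes of clustered peaks, 73 were marked down (6.97%) and 42 up (4.01%) in the authors' deposited table. Per peak, the authors' deposited table marked 231 of 2716 down (8.51%, 7.51 to 9.61%) against 3.44% of all DE peaks, and 127 up (4.68%, 3.94 to 5.54%) against 3.27%. Kept distal peaks with at least 3 neighbours had 9.31% down (6.88 to 12.5%) and 5.25% up (3.49 to 7.82%), intervals that overlap those of the clustered new peaks.

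The share of genes marked down was higher at each further neighbour up to 5. New distal peaks without a neighbour were named for 8861 genes, of which 1.99% were marked down and 2.22% up in the authors' deposited table. At 3 neighbours the shares were 5.93% and 3.87% of 826 genes, at 4 they were 8.97% and 4.49% of 312, and at 5 or more 15.3% (20 genes) and 8.40% (11 genes) of 131. Beyond 5 the numbers are small, and none of the 13 peaks with 8 neighbours or the 9 with 9 was named for a gene marked down, while 3 and 6 of them were named for Asb4, marked up in the authors' deposited table. Whether down and up marks differ in this was not tested.

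**Figure D4:**
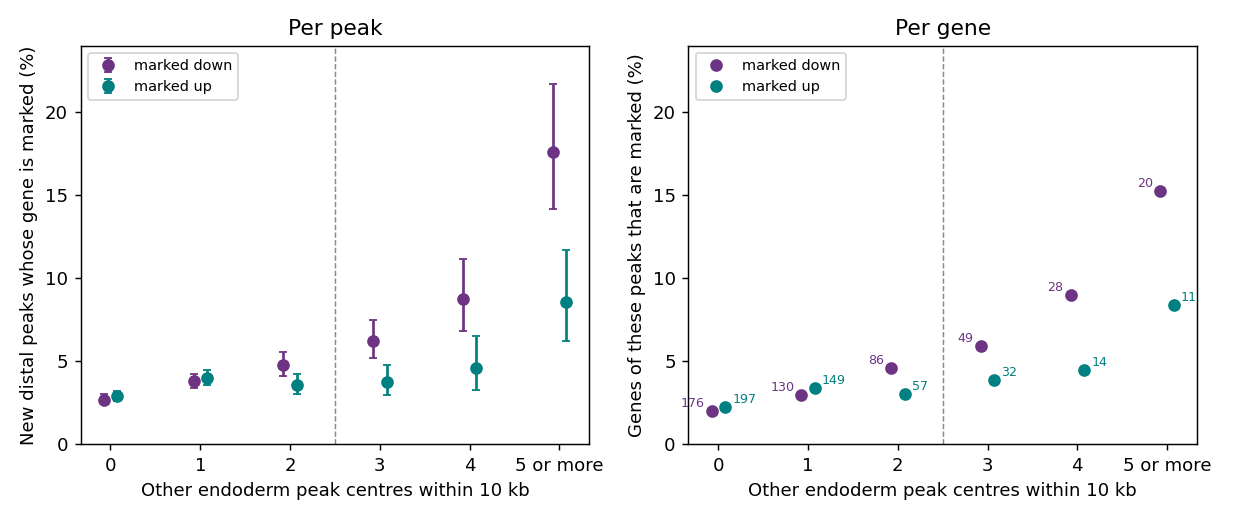
Share of new distal DE peaks (left, with 95% Wilson intervals for counting error) and of their genes (right, with the number of genes) that the authors marked down or up, by the number of other DE peak centres within 10 kb. Right of the dashed line are the clustered peaks; the share of genes marked down is 1.99% without a neighbour and 15.3% at 5 or more.

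Genes with many DE peaks carried marks more often, and such genes were also more likely to have a clustered peak. Genes marked down had a mean of 4.38 DE peaks, genes marked up 3.85 and unmarked genes 2.11. Among genes with 4 to 6 DE peaks, 6.44% of 497 with a clustered peak were marked down (4.60 to 8.95%), against 3.52% of 1674 without one (2.74 to 4.52%). With 7 to 9 DE peaks the shares were 11.1% of 162 (7.14 to 16.9%) and 5.46% of 348 (3.52 to 8.37%). With 10 or more they were 12.5% of 120 and 10.5% of 143, whose intervals overlap widely. Up marks at 4 to 6 DE peaks were on 2.82% of genes with a clustered peak (1.69 to 4.67%) and on 4.12% of those without (3.27 to 5.18%). At 7 to 9 and at 10 or more DE peaks they were on 5.56% against 5.17% and 10.8% against 10.5%. At 1 to 3 DE peaks, up marks were on 2.24% of 268 genes with a clustered peak and 1.33% of those without, and down marks on 2.99% and 1.03%. For up marks the intervals with and without a clustered peak overlap in all 4 ranges. Within these ranges genes with a clustered peak were shorter, with a median of 19124 bp against 46926 bp at 4 to 6 DE peaks. The rule shapes this, because it asks for several DE peaks within 10 kb. Neither gene length nor peak number within a range was matched.

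Of the 73 genes marked down in the authors' deposited table, 29 had at least 4 clustered peaks. These genes, chosen here after their values were seen, include Ddc and Lhx1os with 10 each and Ypel2 with 9. Tle4, a Groucho co-repressor gene, had 7, and Eya2, a co-activator gene, Krt18 and Slc2a3, a glucose transporter gene, had 6 each. Foxo3, a forkhead gene, Lamc1, of the laminin family, and Rbpj had 5 each, and Cdh1, which encodes E-cadherin, and Gpc3, a glypican gene, had 4 each. All of these had at most 3 EpiSC peaks in the authors' deposited table.

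Of the 42 genes marked up in the authors' deposited table, 16 had at least 4 clustered peaks. Asb4 and Slit1 had 10 each and Arid3b, a DNA-binding protein gene, had 7. Fgf8, a growth factor gene of the gastrulating embryo, and Nin, of the centrosome, had 5 each. Bmper, whose product binds BMPs, Igfbp5, a binding protein of insulin-like growth factors, Sufu, an inhibitor of hedgehog signalling, and Tfap2c had 4 each. No group of chained peaks held genes of both marks, while 80 of the 972 groups (8.23%) had a gene marked down and 44 (4.53%) a gene marked up.

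Gene lists were read against the 3.13% of all 21631 protein-coding genes that named a clustered peak, and against the 51% that named any DE peak. Long or peak-rich genes weigh in both, so the shares describe the lists only. A peak counted only for the gene named in the authors' deposited table. Peaks beside a listed gene but named for another were thus left out. The median number of clustered peaks per gene was 0 over all protein-coding genes and in each list except the Groucho genes, where it was 0.5. In the Nodal pathway, whose secreted ligand patterns the epiblast and induces endoderm, 5 of 17 genes had a clustered peak (29.4%). Among them were the secreted inhibitors Lefty1 with 3 and Lefty2 with 1, the ligand Nodal with 1, and its co-receptor gene Tdgf1 with 1. The 3 peaks of Lefty1 were 74, 242 and 329 bp wide and lay 5 to 10 kb from the gene, with 2 EpiSC peaks within 10 kb of each. Any DE peak was named for 12 of the 17.

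Of the endoderm factors and surface genes, 5 of 20 had clustered peaks (25%). Prdm1 had 5 of 14 DE peaks, Cdh1 4 of 10, the pioneer factor gene Foxa1 3 of 5, Eomes, a T-box gene needed for endoderm, 2 of 7, and Foxa2 1 of 2. Prdm1, Foxa1 and Foxa2 named no EpiSC peak, while Cdh1 named 3 and Eomes 2. Foxa2 and Sp5, with 1 clustered peak each, were the 2 of 13 anterior factors (15.4%). The 10 clustered peaks named for Lhx1os, beside Lhx1, and the 7 named for Gm25380, beside Otx2, were not counted for Lhx1 and Otx2. Among WNT antagonists and receptors, 4 of 22 had one (18.2%): the receptor gene Fzd8 with 2, and the antagonists Dkk1 and Sfrp5 and the feedback gene Axin2 with 1 each.

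Of the retinoic acid genes 4 of 16 had clustered peaks (25%). They were the receptor gene Rara with 4, Cyp26c1 with 4 and Cyp26a1 with 3, which encode degrading enzymes, and Dhrs3, a retinaldehyde reductase gene, with 3. Cyp26a1 and Cyp26c1 lie next to each other on chromosome 19. Of the FGF and ERK genes 5 of 19 did (26.3%), with 5 peaks at Fgf8, 4 each at the feedback inhibitor genes Spry2 and Dusp4, and 3 each at Spred2 and the receptor gene Fgfr3. Of the BMP genes 5 of 18 did (27.8%), among them Bmp7 with 6, the target gene Msx1 with 3 and the inhibitory Smad6 with 2. The 6 peaks of Bmp7 made up 1 group inside the gene on chromosome 2, from 172925049 to 172938926, with no EpiSC peak in it.

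Groucho co-repressor genes had clustered peaks at 3 of 6 (50%), with 7 at Tle4, 2 at Tle3 and 1 at Tle1. Of the pluripotency genes 4 of 18 did (22.2%), with 3 at Sall4, 2 at Pou5f1 and 1 each at Nanog and Lin28a. Axon guidance genes had them at 5 of 33 (15.2%), led by Slit1 with 10, Sema6a with 7 and the netrin receptor gene Unc5b with 3. Posterior genes had them at 2 of 13 (15.4%), Hoxb1 and Cdx2, with 2 peaks each. The lowest 2 shares of these lists were in primitive streak and mesoderm genes, with 1 of 14 (7.14%, Tbx20 with 3 peaks), and in blood and muscle genes, with 0 of 16. Of those 16 genes, 8 named a DE peak of any kind.

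Among genes with at least 4 DE peaks, 544 of 1870 protein-coding genes had a clustered one, which is the nearer background for peak-rich lists. In the same range the counts were 4 of 6 Nodal, 3 of 6 WNT, 1 of 3 anterior, 4 of 9 endoderm, 4 of 7 retinoic acid, 5 of 10 FGF and 5 of 9 BMP genes. They were 1 of 2 pluripotency, 1 of 3 streak and mesoderm, 1 of 1 posterior, 3 of 3 Groucho and 4 of 16 axon guidance genes. For axon guidance this is no higher a share than among all genes, and the blood and muscle list, at 0 of 2, had almost no gene in this range.

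**Figure D5:**
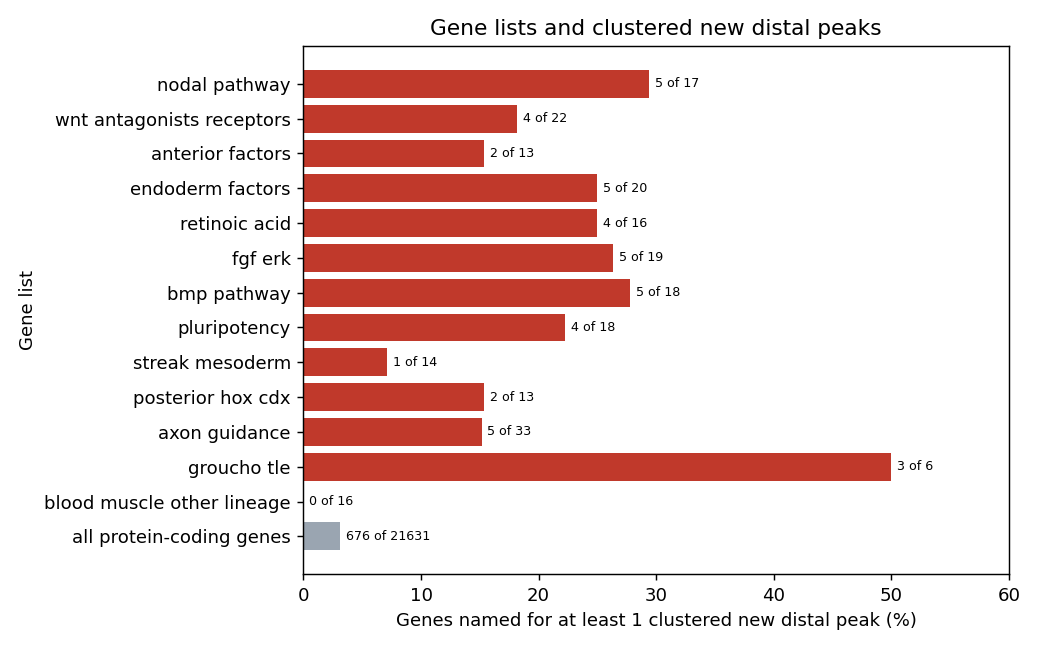
Share of the genes of each list that are named for at least 1 clustered new distal peak in the deposited table, with the counts; the grey bar is all protein-coding genes (676 of 21631). The Groucho list stands at 3 of 6 genes and the blood and muscle list at 0 of 16.

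MicroRNA hairpins lay within 10 kb of a clustered peak in 26 of 1005 cases (2.59%). Of these, 5 were of the miR-302 and miR-367 cluster on chromosome 3, microRNAs known from pluripotent cells, with 4 clustered peaks within 10 kb. These 4, of the 5 clustered peaks named for Mir302b, were 208, 213, 191 and 91 bp wide, from 127539406 to 127544429. All 4 peaks lay inside a protein-coding gene. They are shown with 2 mature members of the family, whose seed (bases 2 to 8, in capitals) is the same. This locus was chosen after its values were seen.
miR-302b-3p: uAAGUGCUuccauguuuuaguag
miR-302d-3p: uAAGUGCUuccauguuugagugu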

How the data were processed

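Peak lists were the measurement: CUT&RUN for OTX2-HA in tagged EpiSCs and DE, with IgG and parental controls. Per the submitters' processing notes, the build was mm10 and the tools were Bowtie2 2.3.5.1, SAMtools 1.14, Picard 2.26.10, bedtools 2.30 and MACS2 2.2.6; their settings are not given in the sources used here. Per the file names, the deposited HA intervals were merged over 50 bp. The authors deposited chromosome, start and end only, 1 list for both HA replicates of a state. A label of an EpiSC replicate and that of the DE IgG sample also name the DE list; this was read as a slip. IgG lists of DE were not analysed here.

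Intervals were printed 1-based. Overlap meant at least 1 bp. Genes came from NCBI RefSeq for GRCm38.p6, promoter and microRNA sequences from RefSeq on the same build; the promoter table used here holds no chromosome 18. Distances ran from peak centres to either gene end. Nearest genes and marks came from the authors' deposited table; 2212 of 2716 clustered peaks (81.4%) had a name found in the gene table. Intervals are 95% Wilson intervals for counting error only. Work used Python 3.11.15, pandas 2.3.3 and statsmodels 0.14.6, and the membership functions were checked on simulated intervals. Peaks, gene lists and motifs were chosen with earlier results of these data known. Genes named were those of the 10 largest groups, the 10 with most clustered peaks, the 5 widest peaks, up to 3 of each list with the most clustered peaks, and Otx2; further genes of a list, marked genes and Mir302b were named after their values were seen. The planned motif counts over whole peaks need a genome and were replaced by those in promoter windows.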

Additional observations from a re-analysis of the deposited data

How the results depend on the processing

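No paired analysis was possible because each state has 1 list over both of its replicates, and leaving out a replicate was likewise not possible. The planned motif alternatives, which need a genome, were not run. There were 12 alternatives to the rule and 2 for TAATCC in promoter windows. Of 98 values, 60 stayed within 1.5 times the main count, or within the 95% interval of the main share or median width, and 38 moved. Neighbours among new peaks only, running the alternatives for down and up marks separately, and the alternatives for TAATCC were chosen after seeing the data.

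With a radius of 5 kb there were 1021 peaks in 400 groups with 414 genes, 55.5% in a protein-coding gene and 16.8% marked (10.8% down, 6.07% up). With 20 kb there were 6141 in 2746 groups with 2422 genes, a median width of 135 bp and 10.8% marked (6.66% down). With at least 2 neighbours there were 6134 in 2438 groups with 2544 genes and 10.5% marked (6.42% down), and with at least 5 there were 397 in 124 groups with 131 genes, a median of 159 bp, 58.4% in a gene and 26.2% marked (17.6% down, 8.56% up). With DE peaks up to 500 bp apart counted as 1 site there were 1504 in 587 groups with 643 genes. With the 6319 widest DE peaks there were 15 in 8 groups with 8 genes, a median of 310 bp, 33.3% in a gene, 13.3% marked down and 0% marked up, a setting that selects on width and leaves few peaks. A minimum width of 78 bp moved the median to 160.5 bp by its construction, and a minimum distance of 5 kb moved the share marked up to 3.93%. Depth, which the lists do not give, limits all counts.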

Other observations

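Chromosomes differed in how many of their new distal DE peaks were clustered. The share was highest on chromosome 19, with 161 of 851 (18.9%, in 52 groups), followed by chromosome 11 with 237 of 1779 (13.3%) and chromosome 17 with 129 of 1005 (12.8%). It was lowest on the X chromosome, with 23 of 495 (4.65%, in 7 groups), and next on chromosome 6 with 117 of 1519 (7.70%). Genes on chromosome 19 with clustered peaks include Slit1 with 10, Tle4 with 7, Fgf8 with 5 and Cyp26c1 with 4. On the X chromosome they include Amot, a scaffold gene of Hippo signalling, with 5 and Gpc3 with 4, both marked down in the authors' deposited table.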
